A study of Mus musculus with 6 samples.

Results

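The interferon-stimulated genes examined here are 39 named genes of the antiviral and intracellular defence programme, whose transcripts were measured in the livers of 6 house mice (Mus musculus) by RNA-Seq. Members are found by gene name. Of the 39, 35 were listed once for every mouse and 4 (Irgm1, Irgm2, Igtp and Tap1) were listed at several places in the genome. None was missing and none had a failed estimate. All 35 passed the filter on low values (3 or more mice with a zFPKM above -3) and were tested among 18619 genes.

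The laboratory group was 3 male mice of the inbred strain C57BL/6, aged 17 to 18 weeks. The wild group was 3 outbred adult mice, 1 male (wild mouse 1) and 2 females (wild mice 2 and 3), trapped alive at 2 sites and housed for 3 months before they were killed. Wild mice 1 and 2 came from the same site and wild mouse 3 from the other. No mouse received a treatment, each was measured once, and RNA came from fresh-frozen rather than formalin-fixed liver. Origin, housing history, site and, in part, sex therefore varied together between the groups.

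Interferons are secreted proteins that warn neighbouring cells of infection. Type I and type III interferons act through JAK kinases on a complex that holds STAT2 and IRF9 and binds a sequence called the interferon-stimulated response element (ISRE). The response to type II interferon, or interferon gamma, runs mainly through another sequence, the gamma-activated site (GAS). The induced genes encode sensors of foreign RNA and DNA, transcription factors that amplify the response, proteins that block viral RNA or its translation, and GTPases that attack the compartments of intracellular parasites. In liver they can be expressed by hepatocytes, by the resident macrophages (Kupffer cells) and by endothelial cells. In bulk liver RNA, fewer cells of a type and less RNA per cell cannot be told apart.

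Both deposited values were used. FPKM is a level per transcript length and library size, so FPKM can be compared between genes. zFPKM is log2 FPKM counted from the peak (mode) of the values of the same library, in units of an SD fitted to that library. The mode ranged from 0.491 to 2.51 on the log2 FPKM scale and did not follow the groups: laboratory mouse 3 (2.12) lay closer to wild mouse 1 (2.51) than to laboratory mouse 1 (0.491). The median log2(FPKM + 0.1) of the tested genes ranged from -0.11 to 0.36 in the laboratory livers and from 0.73 to 1.03 in wild mice. Differences are therefore given on zFPKM and, where it changes a call, on log2(FPKM + 0.1) with every mouse centred on its median. The livers carried the markers of their tissue, with a summed FPKM of 9 hepatocyte genes of 60557 to 79740 in the laboratory group and 50263 to 53343 in the wild group. Of these 9, 4 were called higher in laboratory mice and 2 in wild mice (limma on zFPKM), and their part in the members' values was not tested. The labelled sexes matched Xist and 4 Y-linked genes in all 6 mice. Read counts were not used here and the depth of the libraries is unknown. Reads of all mice were aligned to the C57BL/6J reference, and whether wild mice lost reads through sequence differences was not tested.

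The members spanned a wide range of levels. The highest was Bst2 (tetherin, which holds budding virus at the cell surface), with FPKM values of 99.1, 150 and 69.7 in laboratory livers 1 to 3 and of 227, 160 and 201 in wild mice 1 to 3. Next came Ifi27 and Iigp1, a GTPase of the parasite-containing vacuole, whose FPKM was 87.1, 89 and 55.2 in the laboratory livers and 63.2, 74 and 115 in wild mice. At the other end, Oas3, Gbp5, Ifit2, Mx1, Oasl2 and Ifi44 had an FPKM below 1.5 in every mouse. The median FPKM of the 35 members in a mouse ranged from 1.36 to 2.14 in the laboratory livers and from 3.65 to 5.21 in wild mice. On the zFPKM scale, 33 to 35 of the 35 members lay between -2 and 2 in each mouse. Above 2 were Bst2 in laboratory mouse 2 and wild mouse 3 and Ifi27 in wild mouse 1. Below -2 were Oas3 and Gbp5 in laboratory mouse 3, Oas3 in wild mouse 1 and Mx1 in wild mouse 3.

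**Figure D1:**
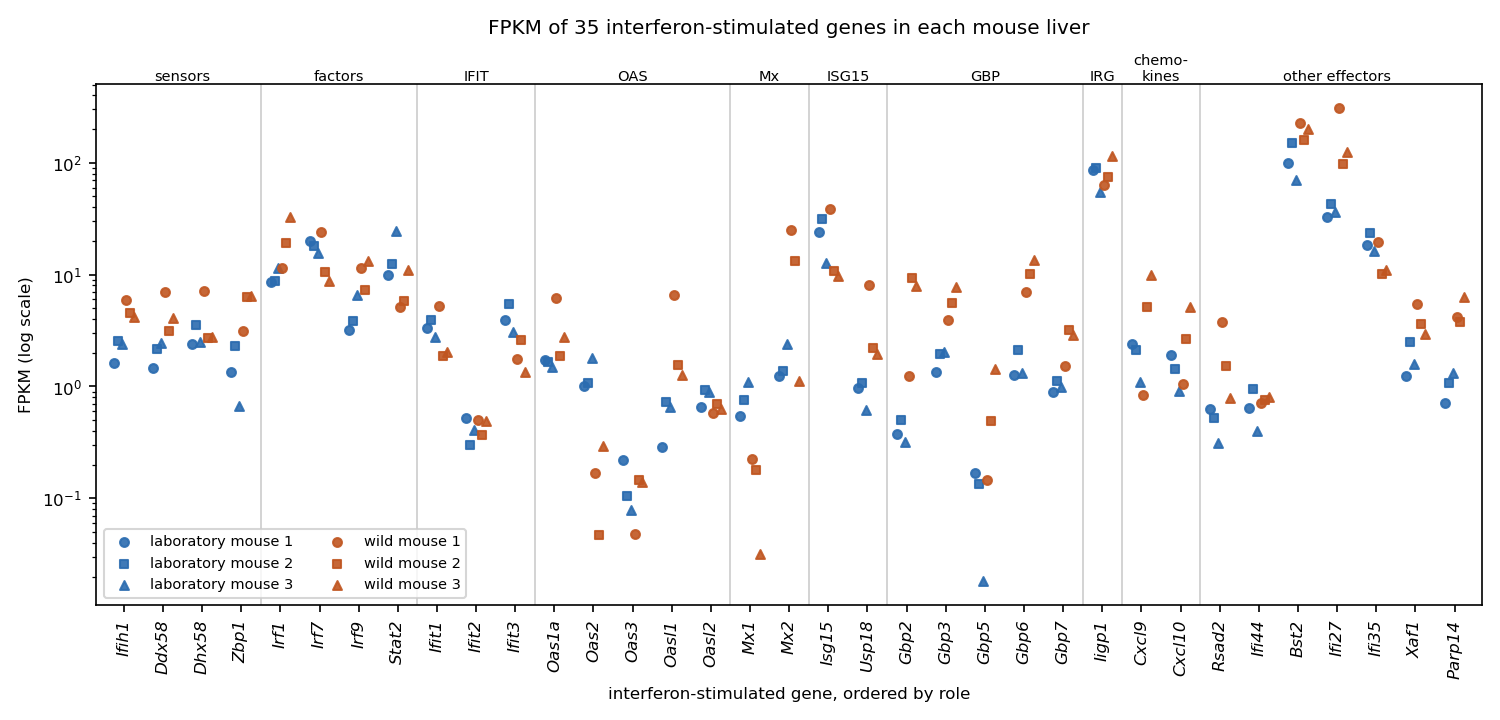
FPKM (vertical axis, log scale) of each of the 35 members listed once, ordered by role, in 3 laboratory mice (blue) and 3 wild mice (orange); each point is 1 mouse. By mean FPKM over all mice, Bst2, Ifi27 and Iigp1 are the highest members and Oas3 and Gbp5 the lowest. The orange circle of wild mouse 1 stands above the other wild mice for Oasl1, Usp18 and Isg15 but below them for the guanylate-binding proteins (GBP).

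Part of the promoters that could be searched carry letters of the sequence features through which interferon-stimulated genes are known to respond. A RefSeq promoter window (250 bases before to 50 after the start, GRCm38.p6) was matched for 29 of the 39 members. No window was matched for Oas2, Mx1, Gbp6, Ifi27, Parp14, Zbp1, Mx2, Usp18, Dhx58 and Iigp1. The ISRE core, searched as GAAANNGAAA on both strands, was found in 18 of the 29 (62.1%) and in 3.44% of all 32851 promoter windows of that length. The GAS, searched as TTCNNNGAA, which reads alike on both strands, was found in 9 of the 29 (31%) and in 8.3% of all windows. The stretches below show 7 members that stand for the different behaviours described later: Stat2 and Gbp2, which differed between the groups in opposite directions, Isg15, Ifit1 and Rsad2, which were highest in wild mouse 1, Cxcl10, which was higher in wild mice 2 and 3, and Bst2, the highest member. The stretches were cut around motif matches, so each of the 7 holds an ISRE core by selection. They are written 5′ to 3′ in the direction of the gene, from the C57BL/6J reference, and capitals mark the matched letters. An ISRE core on the opposite strand reads as TTTCNNTTTC.
Stat2 (chr10:128270248-128270315, plus strand): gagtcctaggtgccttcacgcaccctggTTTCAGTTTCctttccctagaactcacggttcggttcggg
Gbp2 (chr3:142620574-142620643, plus strand): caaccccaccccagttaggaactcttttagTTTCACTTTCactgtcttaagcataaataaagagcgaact
Isg15 (chr4:156200845-156200926, minus strand): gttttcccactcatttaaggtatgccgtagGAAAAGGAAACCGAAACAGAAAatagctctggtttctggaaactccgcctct
Ifit1 (chr19:34640755-34640843, plus strand): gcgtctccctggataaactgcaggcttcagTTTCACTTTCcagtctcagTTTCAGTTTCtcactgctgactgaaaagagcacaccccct
Rsad2 (chr12:26456533-26456602, minus strand): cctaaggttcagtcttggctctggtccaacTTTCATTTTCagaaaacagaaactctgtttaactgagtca
Cxcl10 (chr5:92349063-92349132, minus strand): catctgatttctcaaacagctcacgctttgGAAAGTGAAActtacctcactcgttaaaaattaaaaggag
Bst2 (chr8:71537557-71537638, minus strand): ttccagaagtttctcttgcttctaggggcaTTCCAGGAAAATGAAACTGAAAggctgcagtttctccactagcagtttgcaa

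The stretch of Isg15 holds 3 overlapping matches to the ISRE core and that of Ifit1 holds 2. Bst2 has 2 overlapping ISRE cores and 1 GAS that runs into them. Among the tested members with a window, the 15 with an ISRE core had a median difference (laboratory minus wild) of -0.12 zFPKM and the 10 without a core had 0.01. Oas2, Mx1, Gbp6 and Ifi27, which differed between the groups, had no window and are not in this comparison. Such matches are letters in a window of the reference and were not tested as binding sites, and the promoters of the wild mice themselves were not read.

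Laboratory and wild mice did not differ along the whole programme in one direction. With limma on zFPKM, 6 of the 35 tested members (17.1%) passed an adjusted p of 0.05, against 14.4% of all tested genes. Stat2, Oas2 and Mx1 were higher in laboratory mice (8.57% of members, 7.17% of all genes), and Gbp2, Gbp6 and Ifi27 were higher in wild mice (8.57% of members, 7.28% of all genes). At an unadjusted p of 0.05, 11 members passed. The groups did not overlap in zFPKM for 7 members (20%), namely Stat2, Oas2, Mx1 and Ifi35 with the laboratory mice above and Gbp6, Ifi27 and Parp14 with the wild mice above, against 28.3% of all tested genes. The median difference over the members was -0.10 zFPKM, beside 0.00 over all tested genes.

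Another scale moved these shares. With every mouse centred on its median, 6 members were called higher in laboratory mice (17.1%, against 28.7% of all genes) and 5 in wild mice (14.3%, against 18.6%). Ifit3, Oasl2 and Ifi35 joined the first group and Gbp3 and Parp14 the second, and the median difference was -0.22 on the log2 scale beside 0.27 over all tested genes. On log2(FPKM + 0.1) without centring, where the median of all tested genes was itself shifted by -0.47, 3 members were called higher in laboratory mice (8.57%, against 8.19% of all genes) and 15 in wild mice (42.9%, against 37.9%). On all 5 scales tried, Oas2 and Mx1 were called higher in laboratory mice (5.71% of members, 5.03% of all genes) and Gbp2, Gbp6 and Ifi27 in wild mice (8.57% of members, 6.45% of all genes). On each of these scales the members' shares lay close to or below those of all tested genes.

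**Figure D2:**
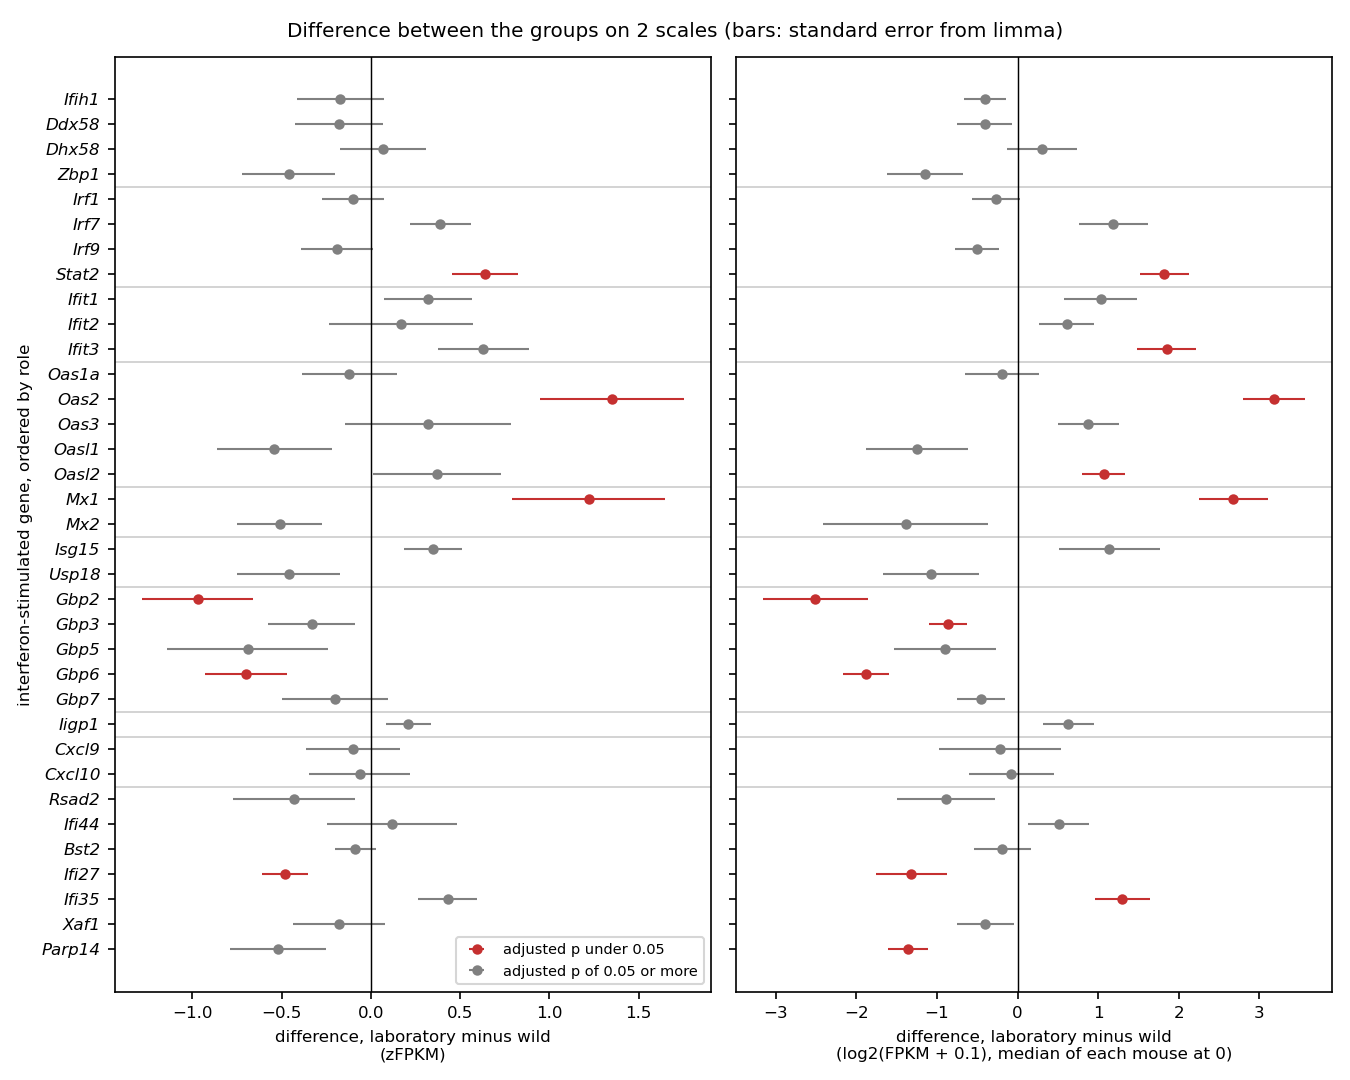
Difference between laboratory and wild mice for each of the 35 members (points) with its standard error from limma (bars), on zFPKM (left) and on log2(FPKM + 0.1) with the median of each mouse at 0 (right); values above 0 are higher in laboratory mice, and red marks an adjusted p under 0.05. Stat2, Oas2, Mx1, Gbp2, Gbp6 and Ifi27 are red on both scales, and the right panel adds Ifit3, Oasl2, Ifi35, Gbp3 and Parp14. The bars in the left panel follow limma's variance trend over all genes and do not show the spread of the member's own mice.

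Among the 4 transcription factors, Stat2 was the only one called on zFPKM. Stat2, the subunit that carries the activation domain of the type I interferon complex, had FPKM values of 10, 12.5 and 24.7 in the laboratory livers and of 5.1, 5.79 and 10.9 in wild mice. On zFPKM every laboratory mouse (0.91 to 1) lay above every wild mouse (-0.0599 to 0.58), a difference of 0.64 ± 0.184 (SE, n = 3 mice against 3, limma, adjusted p = 0.00588). Each SE and p-value on zFPKM from all 6 mice without a covariate follows limma's variance trend over all genes, not the gene's own spread. For Gbp2 the SE was 0.311, beside SDs of 0.522 in laboratory and 0.776 in wild mice. For Parp14 it was 0.269, beside SDs of 0.245 and 0.251. Without the trend Stat2 had an adjusted p of 0.154 (limma), and 1 of the 6 calls was kept. On log2(FPKM + 0.1) without centring the difference of Stat2 was 1.08 with an adjusted p of 0.0609, and on zFPKM the adjusted p was 0.0529 without laboratory mouse 2 and 0.0648 without wild mouse 1. Irf9, the DNA-binding subunit of the same complex, had FPKM values of 3.19, 3.85 and 6.52 in the laboratory livers and of 11.5, 7.22 and 13.3 in wild mice, so its FPKM was higher in every wild mouse. Its difference on zFPKM was -0.19 ± 0.201 (limma, adjusted p = 0.622). Irf7, which amplifies type I interferon production, had FPKM values of 20.1, 17.9 and 15.7 in the laboratory livers and of 23.9, 10.5 and 8.75 in wild mice. Wild mouse 1 was the highest of the 6 mice and the other wild mice were the lowest, and the zFPKM difference of Irf7 was 0.39 ± 0.169 (limma, adjusted p = 0.109, or 0.0149 without laboratory mouse 3). Irf1, the early factor of the interferon gamma response, had FPKM values of 8.6, 8.86 and 11.5 in the laboratory livers and of 11.5, 19.3 and 33.1 in wild mice, with a zFPKM difference of -0.10 ± 0.173 (limma, adjusted p = 0.79).

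The sensors of foreign nucleic acid gave no call on zFPKM (0 of 4 with limma, and 0 at an unadjusted p of 0.05). Ifih1 (MDA5, a sensor of long double-stranded RNA) had FPKM values of 1.62, 2.53 and 2.4 in the laboratory livers and of 5.97, 4.53 and 4.22 in wild mice. Ddx58 (RIG-I) was likewise higher in FPKM in every wild mouse, between 3.12 and 7.05 against 1.45 to 2.43 in laboratory mice. Once each mouse was scaled by its own mode, the groups overlapped for both, with differences of -0.17 ± 0.242 for Ifih1 (limma, adjusted p = 0.726) and -0.18 ± 0.247 for Ddx58 (limma, adjusted p = 0.717). Zbp1, a sensor of Z-form nucleic acid that can trigger cell death, had the lowest mean FPKM of the sensors over all 6 mice and in laboratory mice but the highest in wild mice, with FPKM values of 1.35, 2.29 and 0.674 in the laboratory livers and of 3.14, 6.37 and 6.45 in wild mice. Its zFPKM difference was -0.46 ± 0.261 (limma, adjusted p = 0.254). Dhx58 (LGP2), a helper of the other RNA sensors, reached 7.11 FPKM in wild mouse 1 and lay between 2.38 and 3.53 in the other mice.

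The OAS family makes or resembles the enzymes that signal RNA destruction through RNase L, and its members differed among themselves. Oas2 had FPKM values of 1.02, 1.07 and 1.8 in the laboratory livers and of 0.168, 0.047 and 0.294 in wild mice, a mean 7.64 times as high in laboratory mice. Every laboratory mouse was above every wild mouse, and the zFPKM difference was 1.35 ± 0.403 (limma, adjusted p = 0.00901), the largest among the 35 members. Without laboratory mouse 1 or 2 the adjusted p of Oas2 was 0.11 or 0.0934, with differences of 1.28 and 1.32. Oas1a had FPKM values of 1.74, 1.65 and 1.5 in the laboratory livers and of 6.24, 1.87 and 2.79 in wild mice, with a zFPKM difference of -0.12 ± 0.265 (limma, adjusted p = 0.839). Oas3 was the lowest member of the family, with FPKM values of 0.222, 0.104 and 0.0789 in the laboratory livers and of 0.0478, 0.147 and 0.141 in wild mice, and the groups overlapped. Oasl1, which was chosen for mention after its values were seen, reached 6.59 FPKM in wild mouse 1, beside 1.56 and 1.26 in wild mice 2 and 3 and 0.288 to 0.721 in laboratory mice. Oasl2 stayed between 0.578 and 0.922 FPKM in all 6 mice, and was called higher in laboratory mice on the centred log2 scale (1.07 ± 0.265, limma, adjusted p = 0.0129) but not on zFPKM (adjusted p = 0.578).

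Of the 2 Mx GTPases, which trap viral nucleocapsids, Mx1 was called and Mx2 was not. Mx1 had FPKM values of 0.546, 0.763 and 1.09 in the laboratory livers and of 0.223, 0.18 and 0.032 in wild mice. All laboratory mice were above all wild mice, with a mean 5.53 times as high and a zFPKM difference of 1.22 ± 0.428 (limma, adjusted p = 0.0339). The call of Mx1 was lost without any of 5 of the mice (all but wild mouse 2), with adjusted p-values of 0.182, 0.193 and 0.0559 without laboratory mice 1 to 3 and of 0.0578 and 0.279 without wild mice 1 and 3. As background, many inbred strains including C57BL/6 carry a defective Mx1 allele that gives no functional protein, so a transcript level says nothing of the protein here. Mx2 had FPKM values of 1.23, 1.37 and 2.4 in the laboratory livers and of 24.9, 13.3 and 1.12 in wild mice. Wild mice 1 and 2 were thus far above the laboratory mice, while wild mouse 3 was below all of them. The zFPKM difference of Mx2 was -0.51 ± 0.238 (limma, adjusted p = 0.148), and without wild mouse 3 it was -0.95 (adjusted p = 0.0144).

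Of the IFIT proteins, Ifit1 binds viral RNA that lacks the host cap methylation. Ifit1 had FPKM values of 3.36, 3.93 and 2.79 in the laboratory livers and of 5.21, 1.87 and 2.03 in wild mice, and the groups overlapped on both scales. Ifit2 was low throughout, with FPKM values of 0.521, 0.3 and 0.41 in the laboratory livers and of 0.503, 0.372 and 0.49 in wild mice. Ifit3 was the member of the family with the larger difference, with an FPKM of 3.08 to 5.49 in the laboratory livers and 1.34 to 2.61 in wild mice. Its zFPKM difference was 0.63 ± 0.254 (limma, adjusted p = 0.0753), and it was called on the centred log2 scale (1.85 ± 0.367, adjusted p = 0.00537).

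Isg15, a ubiquitin-like protein that is attached to targets during the response, had FPKM values of 23.9, 31.3 and 12.6 in the laboratory livers and of 38.8, 10.8 and 9.76 in wild mice. Usp18, the protease that removes Isg15 and damps type I signalling, had FPKM values of 0.961, 1.08 and 0.62 in the laboratory livers and of 8.12, 2.22 and 1.94 in wild mice. Both were highest in wild mouse 1, but in the other wild mice Isg15 lay below every laboratory mouse and Usp18 above every one. Neither was called on zFPKM (limma, adjusted p = 0.137 for Isg15 and 0.326 for Usp18), though without laboratory mouse 3 Isg15 was called higher in laboratory mice (0.60, adjusted p = 0.0145).

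The guanylate-binding proteins, large GTPases induced mainly by interferon gamma that break open pathogen vacuoles, all had a higher mean FPKM in wild mice, between 2.53 and 15.5 times that of laboratory mice. FPKM lay higher in wild mice more widely. The wild mean was higher for 25 of the 35 members (71.4%), a share that was not taken over all tested genes. On a stricter measure, every wild mouse was above every laboratory mouse for 43.7% of all tested genes. The groups did not overlap in FPKM, in either direction, for 20 of the 35 members and for 55.8% of all tested genes. Gbp2 had FPKM values of 0.376, 0.501 and 0.317 in the laboratory livers and of 1.24, 9.29 and 7.98 in wild mice. Every wild mouse was higher in FPKM, but on zFPKM wild mouse 1 (-0.817) lay among the laboratory mice (-1.5 to -0.587). The zFPKM difference of Gbp2 was -0.97 ± 0.311 (limma, adjusted p = 0.0168), and it was -0.71 without wild mouse 2 (adjusted p = 0.32) and -0.80 without wild mouse 3 (adjusted p = 0.292). With laboratory mouse 3 left out it was -0.67 (adjusted p = 0.232). Gbp6 had FPKM values of 1.26, 2.14 and 1.32 in the laboratory livers and of 7.05, 10.2 and 13.6 in wild mice, with all wild mice above all laboratory mice on both scales and a zFPKM difference of -0.70 ± 0.231 (limma, adjusted p = 0.023). The call of Gbp6 was lost without laboratory mouse 1 (adjusted p = 0.0514), laboratory mouse 3 (0.136), wild mouse 2 (0.193) or wild mouse 3 (0.286). Gbp5 was the lowest of the family, with FPKM values of 0.167, 0.133 and 0.0181 in the laboratory livers and of 0.146, 0.489 and 1.44 in wild mice. Gbp3, Gbp5 and Gbp7 were not called on zFPKM (limma, adjusted p = 0.43, 0.356 and 0.744). On the centred log2 scale Gbp3 was called (-0.87 ± 0.236, limma, adjusted p = 0.0182).

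Sex could not be separated from origin for this family, since both female mice were wild. With sex as a covariate, which leaves wild mouse 1 as the only wild male against 3 laboratory males, the difference was -0.08 ± 0.387 for Gbp2 (limma, adjusted p = 0.92) and -0.32 ± 0.302 for Gbp6 (adjusted p = 0.562). The calls of Stat2 (1.01 ± 0.2, adjusted p = 0.0102), Oas2 (1.60 ± 0.42, adjusted p = 0.0376) and Ifi27 (-0.74 ± 0.16, adjusted p = 0.0158) were still past the threshold in that fit, and Mx1 had an adjusted p of 0.162. Origin then rests on a single wild male, which is assumed to vary like the other mice, so these values have no replicate of their own.

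Among the remaining effectors, Ifi27, a small membrane protein strongly induced by type I interferon, had FPKM values of 32.6, 43 and 36.4 in the laboratory livers and of 308, 97.1 and 125 in wild mice. All wild mice were above all laboratory mice, with a mean 4.74 times as high and a zFPKM difference of -0.48 ± 0.127 (limma, adjusted p = 0.00249). Without wild mouse 1 the difference of Ifi27 was -0.35 (adjusted p = 0.096). Bst2 was not called on zFPKM (-0.0857 ± 0.117, limma, adjusted p = 0.713). Ifi44, the lowest of this group, had FPKM values of 0.643, 0.957 and 0.399 in the laboratory livers and of 0.713, 0.752 and 0.812 in wild mice. Rsad2 (viperin, which makes a chain-terminating nucleotide) ranged from 0.313 to 0.629 FPKM in the laboratory livers and reached 3.81 in wild mouse 1, 1.51 in wild mouse 2 and 0.791 in wild mouse 3. Xaf1 had an FPKM of 1.24 to 2.51 in the laboratory livers and of 2.94 to 5.46 in wild mice. Ifi35 had an FPKM of 16.3 to 23.7 in the laboratory livers and of 10.2 to 19.6 in wild mice, and Parp14, an ADP-ribosyltransferase, had 0.713 to 1.31 and 3.78 to 6.36.

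The interferon-induced chemokines Cxcl9 and Cxcl10, which draw activated T cells, were not called (limma, adjusted p = 0.871 and 0.926). Cxcl9 had FPKM values of 2.42, 2.14 and 1.09 in the laboratory livers and of 0.839, 5.15 and 9.96 in wild mice. Cxcl10 had FPKM values of 1.9, 1.42 and 0.916 in the laboratory livers and of 1.06, 2.67 and 5.16 in wild mice. For both genes wild mice 2 and 3 were above every laboratory mouse and wild mouse 1 was within the laboratory range for Cxcl10 and below it for Cxcl9.

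Cufflinks gave bounds on the FPKM of a single library for 5 of the mice (all but laboratory mouse 1). For Oas2 and Mx1 the lower bounds of laboratory mice 2 and 3 lay above the upper bounds of all 3 wild mice, which held for 4.54% of all tested genes. For example, the bounds of Mx1 were 0.522 to 1 in laboratory mouse 2 and 0.0994 to 0.347 in wild mouse 1. For 8 members (Ifih1, Ddx58, Usp18, Gbp2, Gbp3, Gbp6, Ifi27 and Parp14) the wild mice were above in the same sense, which held for 29.8% of all tested genes. The lowest values had wide bounds: Gbp5 in laboratory mouse 3 (FPKM 0.0181) ran from 0 to 0.0548. Oas2 in wild mouse 2 (FPKM 0.047) ran from 0 to 0.111 and Mx1 in wild mouse 3 (FPKM 0.032) from 0 to 0.0777. The folds of Oas2 and Mx1 thus rest in part on values near 0.

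The wild mice differed among themselves, and wild mouse 1 stood at opposite ends of the wild group for different members, in part within a role. Wild mouse 1 had the highest FPKM of the wild mice for 17 of the 35 members (48.6%), against 31.4% of all tested genes, and wild mouse 3 for 13 (37.1%), against 42.8%. On zFPKM, wild mouse 1 was the highest of the wild mice for 12 members (34.3%), against 4.86% of all tested genes. The 17 were 3 of the 4 sensors (Ifih1, Ddx58 and Dhx58), Irf7, Ifit1, Ifit2, Oas1a, Oasl1, both Mx genes, Isg15, Usp18 and 5 of the 7 other effectors (Rsad2, Bst2, Ifi27, Ifi35 and Xaf1). Against the mean of wild mice 2 and 3, wild mouse 1 was 4.67 times as high for Oasl1, 3.9 times for Usp18, 3.77 times for Isg15, 3.32 times for Rsad2 and 2.77 times for Ifi27. Wild mouse 1 was below both other wild mice for the 5 guanylate-binding proteins, Iigp1, both chemokines, Irf1 and Zbp1. The same held for Stat2, Oas3, Oasl2 and Ifi44, so several roles, among them the OAS family, were split. The share of all tested genes that were lowest in wild mouse 1 was not taken. The log2 ratio of wild mouse 1 to the mean of the other wild mice had a median of -0.11 over all tested genes. Over the members that median was 0.16 (both on FPKM + 0.1). The mean of wild mice 2 and 3 was 9.01 times wild mouse 1 for Cxcl9, 6.94 times for Gbp2, 6.61 times for Gbp5, 3.68 times for Cxcl10 and 2.27 times for Irf1. These are comparisons of single mice, with no replicate of a wild male, and carry no test.

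**Figure D3:**
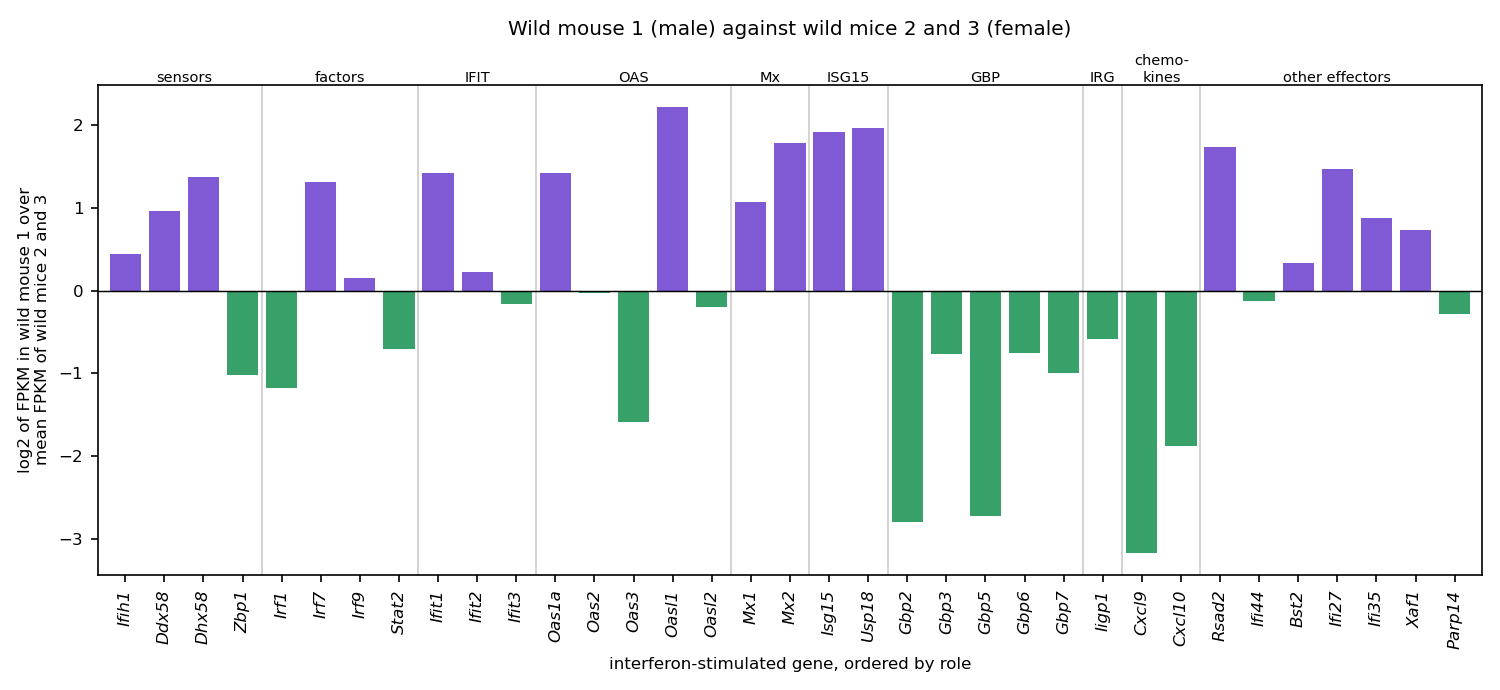
Log2 of the FPKM of wild mouse 1 (male) over the mean FPKM of wild mice 2 and 3 (female) for the 35 members, ordered by role; purple bars are higher in wild mouse 1, green bars lower. All 5 GBP genes and both chemokines point down, and Oasl1, Usp18, Isg15, Mx2 and Rsad2 are the tallest upward bars.

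Markers of other cell types moved along with part of this pattern. The summed FPKM of 11 Kupffer cell genes was 119, 104 and 74.4 in the laboratory livers and 37.6, 147 and 310 in wild mice 1 to 3. None of the 11 was at 0 in any mouse, and 0 of the 11 differed between the groups (limma, 2 at an unadjusted p of 0.05). Wild mouse 1 was lowest and wild mouse 3 highest of all 6 mice, which is also the order of Cxcl9 at its ends. Genes of T and NK cells summed to 2.19 to 3.73 FPKM in the laboratory livers and 2.07, 2.62 and 7.53 in wild mice, with 0 of 11 called (limma, 0 at an unadjusted p of 0.05). For B and plasma cells the sums were 4.16 to 5.71 and 4.01, 2.88 and 22.4, and Jchain was called higher in wild mice while Cd79b was called higher in laboratory mice. Sinusoidal endothelial genes summed to 24.5 to 39.9 FPKM in the laboratory livers and 22, 70.1 and 41.8 in wild mice, with 0 of 7 called (limma, 2 at an unadjusted p of 0.05). Genes of monocytes and neutrophils summed to 7.55 to 14 and 4.01 to 6.85 FPKM, with S100a8 and S100a9 called higher in the laboratory livers and Ly6g listed at 0 throughout. Another gene of that list, Ly6c2, was higher in FPKM in every wild mouse (0.679 to 3.77 against 0.309 to 0.347) but was not called (limma, adjusted p = 0.27). The genes of plasmacytoid dendritic cells, a main source of type I interferon, summed to 0.818 to 1.13 FPKM in the laboratory livers and 0.0683 to 0.168 in wild mice, with Siglech and Klk1 called higher in laboratory mice. The part of these cell types in the members' values was not tested.

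**Figure D4:**
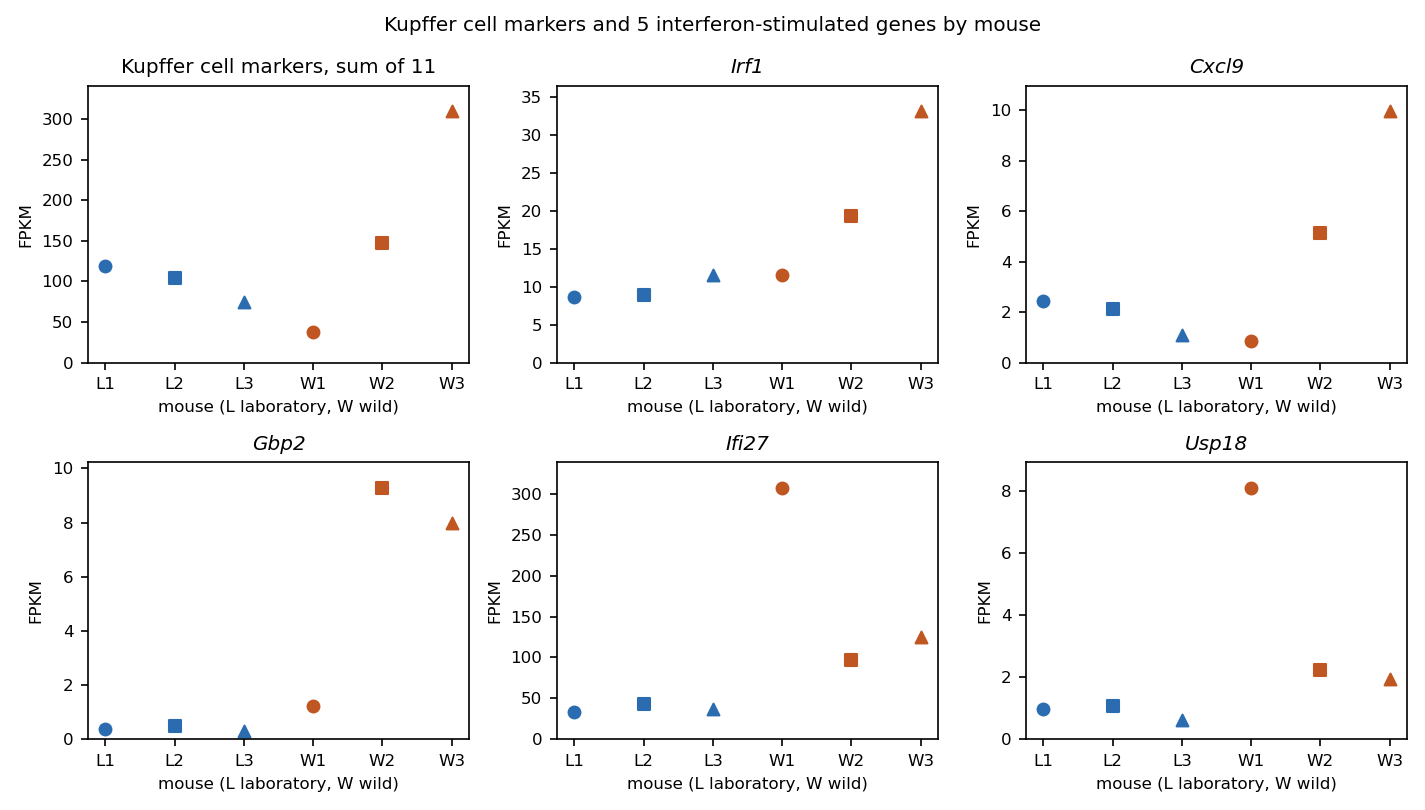
FPKM of each mouse (L laboratory, W wild) for the sum of 11 Kupffer cell markers and for 5 members; each point is 1 mouse and each vertical axis starts at 0. The Kupffer sum, Irf1 and Cxcl9 are highest in wild mouse 3 (310, 33.1 and 9.96 FPKM), Gbp2 is highest in wild mouse 2 (9.29), and Ifi27 and Usp18 are highest in wild mouse 1 (308 and 8.12).

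The rest of the interferon pathway was followed with 98 genes, of which 84 were listed once and 74 were tested. Of the 74, 6 were called higher in the laboratory livers and 5 in wild mice (14.9%, against 14.4% of all tested genes). The interferons themselves were hardly seen: 9 of the 10 interferon genes, all of type I or III, were listed at 0 in every mouse. Ifng (interferon gamma) was listed at 0 in 3 mice and reached 0.102 FPKM in laboratory mouse 3, 0.0344 in wild mouse 2 and 0.0399 in wild mouse 3. Among the receptors and kinases, Ifnar2, a subunit of the type I receptor, was called higher in laboratory mice, with FPKM values of 91.7, 92.9 and 56.8 in the laboratory livers and of 40.3, 43.2 and 37.5 in wild mice (0.58 ± 0.134, limma, adjusted p = 0.000351). Mavs, the mitochondrial adaptor on which Ifih1 and Ddx58 signal, had FPKM values of 1.62, 1.87 and 5.01 in the laboratory livers and of 20.1, 23.3 and 27.9 in wild mice (-0.86 ± 0.195, limma, adjusted p = 0.000254). Irf5, a factor of myeloid cells, was called higher in laboratory mice (3.51 to 4.33 FPKM against 0.877 to 2.65, limma, adjusted p = 0.0434). So was the DNA exonuclease Trex1 (10.3 to 13.3 FPKM against 4.57 to 6.72, limma, adjusted p = 0.00884).

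Among 22 further interferon-induced genes tested, 2 were called higher in laboratory mice (Isg20 and Ifi27l2a) and 1 in wild mice (Lgals3bp). Isg20, an RNA exonuclease, had 3.28 to 3.9 FPKM in laboratory mice against 1.1 to 1.44, and Lgals3bp, a secreted glycoprotein, had 7.61 to 9.33 against 27.8 to 51.2. Ifi27l2a, a relative of Ifi27, had FPKM values of 26.6, 23.3 and 16.8 in the laboratory livers and of 5.13, 3.53 and 0.637 in wild mice, the reverse of Ifi27. Near copies of the members can share reads with them. Of 14 such genes tested, Gbp10 and Gbp11 were called higher in wild mice and F830016B08Rik, a GTPase gene related to Iigp1, higher in laboratory mice (4.35 to 5.74 FPKM against 0.173 to 0.262). Gbp10, which closely resembles Gbp6, had FPKM values of 0.699, 1.26 and 0.858 in the laboratory livers and of 4.74, 11.5 and 17.3 in wild mice, so the levels of Gbp6 and Gbp10 are uncertain as single genes. The same holds for Oas1a beside Oas1g (0.743 to 0.849 FPKM in the laboratory group and 0.889 to 1.94 in the wild group) and for Ifit3 beside Ifit3b (0.677 to 1.01 and 0.564 to 2.86).

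The 4 members under repeated names were listed on the chromosome and on alternate sequences, and only 1 entry of each was listed for laboratory mouse 1. Irgm1, a regulator of the immunity-related GTPases, had on its chromosome 11 entry FPKM values of 6.59 and 3.94 in the 2 laboratory mice it was listed for (2 and 3) and of 16.8, 10.7 and 15.9 in wild mice 1 to 3. Irgm2 was listed on chromosome 11 for every mouse, with FPKM values of 0.989, 1.32 and 0.754 in the laboratory livers and of 4.8, 3.32 and 9.34 in wild mice, a zFPKM difference of -0.61 ± 0.266 (limma, adjusted p = 0.108). Igtp, another GTPase of the same family, had 7.75 and 4.15 FPKM in laboratory mice 2 and 3 and 14.3, 10.3 and 25.5 in wild mice, and its alternate entry gave 5.09 in laboratory mouse 1. Tap1, which pumps peptides into the endoplasmic reticulum for antigen presentation, had 1.27 and 1.1 FPKM in laboratory mice 2 and 3 and 1.05, 1.31 and 2.69 in wild mice on chromosome 17. For the 3 GTPases every wild mouse was above every laboratory mouse with a value in FPKM, as was the case for 43.7% of all tested genes. With the entries of a name summed, which leaves laboratory mouse 1 without a value for these 4 genes, Irgm2 was called higher in wild mice (-0.73 ± 0.248, limma, adjusted p = 0.0294), and Irgm1 (adjusted p = 0.069), Igtp (adjusted p = 0.197) and Tap1 (adjusted p = 0.623) were not. Summed entries can count the same reads more than once.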

How the data were processed

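Liver RNA of 3 laboratory and 3 wild mice was sequenced by the authors as stranded mRNA libraries (single reads). They aligned the reads to masked GRCm38.p6 with kalign and calculated the deposited FPKM with the Tuxedo pipeline, normalized for transcript length and library size, with Cufflinks' bounds for 5 mice. From log2 FPKM the authors derived zFPKM, a score on a scale of its own for each mouse, with the R package of that name. Picard is also named in the submitters' processing notes, with no role. No counts were used, so the count test of the study was not repeated and no counting interval is given.

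Gene names with a single entry in every mouse numbered 47256, of which 24 with a failed or too-high estimate were dropped (failures are not marked for laboratory mouse 1). Genes with zFPKM above -3 in at least 3 mice (18619) were tested, lower values being set to -3, with limma 3.58.1 in R 4.3.3 (lmFit, eBayes with trend, Benjamini-Hochberg over all genes tested, adjusted p under 0.05, two-sided). Tables, motifs and figures were made in Python 3.11.15 with pandas 2.3.3, numpy 2.4.6 and matplotlib 3.10.9. Mice of a group are separate animals, and their numbers follow accession order. On simulated data for this comparison, 71% of 200 genes of 18619 shifted by 2 in zFPKM were recovered. There were 144 calls, of which 1.39% were wrong. The largest difference of a member was smaller (1.35 zFPKM, Oas2), and recovery at shifts below 2 was not tested. The members, role groups and lists were chosen with earlier results of these data known. Values in every mouse are given for members with an adjusted p under 0.05, for the highest and lowest member of each role, and for Ifng and called pathway genes (some genes are not reported here); other members were named after their values were seen. The file positions count from 0, so 1 was added to starts. Of the pathway genes, 13 had repeated names and were left out. Cgas was matched through its RefSeq synonym.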

Additional observations from a re-analysis of the deposited data

How the results depend on the processing

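With 3 mice a group, depth unknown and sex partly confounded, calls of single members are fragile. The laboratory and wild mice are different animals with no pairing between them, so no paired analysis was made. Of the 6 called members, 3 kept call and direction with a floor of -5 or with sex as a covariate, 1 without the variance trend and 0 without a filter on low values (limma, 47232 genes tested), where Stat2, Oas2, Mx1 and Ifi27 passed an unadjusted p of 0.05. Members called were 6 by zFPKM, 18 on log2(FPKM + 0.1), 15 on log2(FPKM + 1), 12 after quantile normalization, 11 with medians at 0, 3 with a floor of -5, 0 without a filter, 1 without the trend and 3 with sex. Those higher in laboratory mice numbered 3, then 7 after quantile normalization, 6 with medians at 0, 0 without a filter and 1 without the trend. Those higher in wild mice numbered 3, then 15 and 12 on the 2 log2 scales, 5 after quantile normalization or with medians at 0, 1 with a floor of -5 or with sex, and 0 without a filter or without the trend (limma, each with 1 member at an unadjusted p of 0.05). The median difference was -0.10, against -0.96 and -0.79 on the log2 scales, and turned to 0.07 with sex. Members without overlap numbered 7 of 35, against 20 on both log2 scales and 12 after quantile normalization or with medians at 0, while 28.3%, 55.8%, 52.9% and 58.3% of all tested genes had no overlap on these scales. All genes called numbered 2690, against 8589, 8242, 7282, 8817, 23 (no filter), 795 (no trend) and 1374 (sex), in the same order of settings. Pathway genes called numbered 11, against 40, 35, 33, 35, 0 (no filter), 2 (no trend) and 7 (sex). The causes of these shifts were not tested. Without a filter more genes enter both the variance fit and the adjustment, and Gbp2 and Gbp6 no longer passed an unadjusted p of 0.05 (limma).

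Leaving out each mouse gave 3 to 7 members called, 0 to 6 higher in laboratory mice, 1 to 3 higher in wild mice, 7 to 16 without overlap, a median of -0.22 to 0.06, 1420 to 2556 genes called in all, 6 to 10 pathway genes called, and 3 to 4 of the 6 calls kept. The lowest count in laboratory mice (0, with 3 at an unadjusted p of 0.05, limma) came without laboratory mouse 2 and the highest (6) without laboratory mouse 3. Without laboratory mouse 3 the median turned to 0.06, Isg15 was called higher in laboratory mice (0.60, adjusted p = 0.0145) and Irf7 too (0.53, adjusted p = 0.0149), and Gbp2 (-0.67, adjusted p = 0.232) and Gbp6 (-0.46, adjusted p = 0.136) lost their calls. Under the 17 alternatives, adjusted p-values (limma) ran from 0.0026 to 0.45 for Stat2, 0.000765 to 0.321 for Oas2, 0.00236 to 0.45 for Mx1, 0.00777 to 0.92 for Gbp2, 0.000507 to 0.562 for Gbp6 and 0.00273 to 0.45 for Ifi27, with no call in the opposite direction. Testing the entry of a repeated name that every mouse lists was added after seeing the data and called none of those 4 members.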
